A study of Mus musculus with 32 samples.

Results

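The mitochondrial ribosomal protein genes were taken as all rows of the count table whose gene symbol begins with Mrpl or Mrps followed by a number, with pseudogene rows left out. This gave 78 genes (49 Mrpl and 29 Mrps) of 23958 rows, and 76 of them passed the filter on low counts among 12651 tested genes. The 2 that did not pass were Mrpl53, with 1 read in all mice together, and Mrps34, with 10. The exons of Mrpl53 overlap Ccdc142os on the opposite strand and Gm42688 on the same strand, and those of Mrps34 overlap Mapk8ip3 and Nme3. Of the 78 genes, 45 had such an overlap or a near-identical stretch of their 3′ end in transcripts of another gene. That other gene can be the overlapping neighbour itself, as Mapk8ip3 is for Mrps34. The stretch can also be shared by many genes, as by 259 for Mrpl20. The share over all genes was not counted. Whether reads of Mrpl53 and Mrps34 were assigned elsewhere was not tested.

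RNA was measured in the frontal cortex (prelimbic and infralimbic areas) of 32 mice inoculated with gut microbiota from a primate: humans (12 mice), squirrel monkeys, Saimiri boliviensis (8 mice), or macaques, Macaca mulatta (12 mice). The study asks whether the donor species changes gene expression in the recipient brain. Every mouse carried a primate microbiota, the labels give no strain, genotype, age or time after inoculation, and no mouse without a transplant was analysed here. Each of the 6 batches named in the labels holds recipients of 1 donor species: A (4 mice) and B (8 mice) had human donors, batches C and D (4 mice each) had squirrel monkey donors, and macaque donors served E (5 mice) and F (7 mice). By the library names, A filled plate column 1 and B column 2, C and D shared column 3, E lay in column 4, and the mice of F were in columns 4 (3 mice) and 5 (4 mice). Donor species cannot be told apart from batch or plate column, and batch and plate column coincide for A and B. Nothing in the labels says how many donors stand behind a group, so p-values measure the spread between these mice.

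Mitochondrial ribosomes translate the few proteins encoded by mitochondrial DNA, all of them core parts of the respiratory chain and ATP synthase, and neurons depend heavily on that chain. Their RNAs come from the mitochondrial genome, while every protein is encoded in the nucleus, made in the cytosol and imported. Part of the proteins descend from bacterial ribosomes and part were added in mitochondria, and inherited defects in several of them cause combined respiratory chain deficiency. Transcription of these genes is known to use the nuclear respiratory factors NRF1 and GABP, the latter an ETS family protein.

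Promoters are shown for Mrpl33 and Mrps33, the genes with the smallest p-values among those higher and those lower with human microbiota. Each is a 300-base RefSeq window on GRCm38.p6, from 250 bases before the start to 50 after it, written 5′ to 3′ along the gene. Capitals mark the ETS letters CCGGAAG or, on the other strand, CTTCCGG.
Mrpl33, chr5:31613701-31614000, plus strand: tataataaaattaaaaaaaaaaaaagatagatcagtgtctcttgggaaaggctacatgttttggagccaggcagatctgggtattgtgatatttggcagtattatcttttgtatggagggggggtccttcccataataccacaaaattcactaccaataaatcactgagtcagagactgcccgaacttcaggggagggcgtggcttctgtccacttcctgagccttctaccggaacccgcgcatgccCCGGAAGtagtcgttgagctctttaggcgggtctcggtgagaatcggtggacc
Mrps33, chr6:39810887-39811186, minus strand: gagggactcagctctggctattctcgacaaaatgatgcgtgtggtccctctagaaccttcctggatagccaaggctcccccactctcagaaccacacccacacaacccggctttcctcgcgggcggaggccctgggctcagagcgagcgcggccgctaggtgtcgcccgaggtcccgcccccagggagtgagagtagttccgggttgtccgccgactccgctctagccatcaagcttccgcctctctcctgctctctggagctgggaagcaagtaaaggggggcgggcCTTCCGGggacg
The motif began at base 248 of the window of Mrpl33, which rose, and at base 289 of that of Mrps33, which fell. Whether the motif goes with the direction of change was not tested. No window for Mrps35 was among the sequences used here.

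Over the family, 75 windows matched 69 of the 78 genes. CCGGAAG, read on both strands, stood in 34.7% of these windows, against 15.9% of the 12671 windows of tested genes and 8.86% of all 32851. GCGCANGCG, the letters of the NRF1 half-sites with N for any base, stood in 21.3%, against 12.6% of tested genes' windows. AAGATGGC, the letters bound by YY1, stood in 16%, against 4.23%. The SP1 letters GGGCGG were in 52% of the family's windows and 60.3% of tested genes' windows, and TATAAA in 6.67% and 7.84%. At least one of the ETS, NRF1 and YY1 letters was found in 58.7% of the family's windows and 28.6% of tested genes' windows. These are matches of letters, not measured binding.

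Levels are given as CPM, the reads of a gene relative to the library total, after scaling between mice. The tag-based libraries read the 3′ end of each transcript, and the values are not divided by transcript length. Mean levels ranged from 10.8 CPM (Mrpl23) to 186 CPM (Mrps33), and the summed level of the 78 genes was 4549 ± 261 CPM (SD, n = 12) with macaque, 4600 ± 176 (n = 8) with squirrel monkey and 4637 ± 294 (n = 12) with human microbiota. The sums ran from 4172 over a median of 4508 to 4990 CPM in macaque recipients, from 4343 over 4627 to 4843 in squirrel monkey recipients and from 4115 over 4635 to 5034 in human recipients. The lowest and the highest mouse of all were both human recipients, and the groups overlapped over nearly their whole range. In bulk tissue, fewer cells of a type and less RNA per cell cannot be told apart.

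The genes varied little between mice. The coefficient of variation beyond counting noise had a median of 0.094 over the family and 0.122 over all tested genes. In the family it ran from 0.0461 for Mrpl19 to 0.3 for Mrpl23. The members' median level was 53.6 CPM, against 33.6 CPM for all tested genes, and genes of like level were not compared. Within batches, pairs of members correlated weakly, with a median Pearson r of 0.121 over 2850 pairs (quartiles -0.0312 and 0.26); all points share the same libraries.

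With human against macaque microbiota, 3 members changed: Mrpl33 and Mrps35 rose and Mrps33 fell (edgeR quasi-likelihood test, Benjamini-Hochberg adjusted p below 0.05 over all 12651 genes). These 3 make up 3.95% of the 76 tested members, while 8.01% of all tested genes passed. Scaled by library totals only, 7 members were higher and 1 lower past the threshold (all tested genes, 673 higher and 321 lower, against 565 and 448). The median log2 fold change of the members was 0.05, against -0.001 for all tested genes, with 48 members above 0 and 28 below. Before adjustment, 13 members were higher and 2 lower at a p below 0.05, which is 19.7% of them, against 23.1% of all tested genes.

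**Figure D1:**
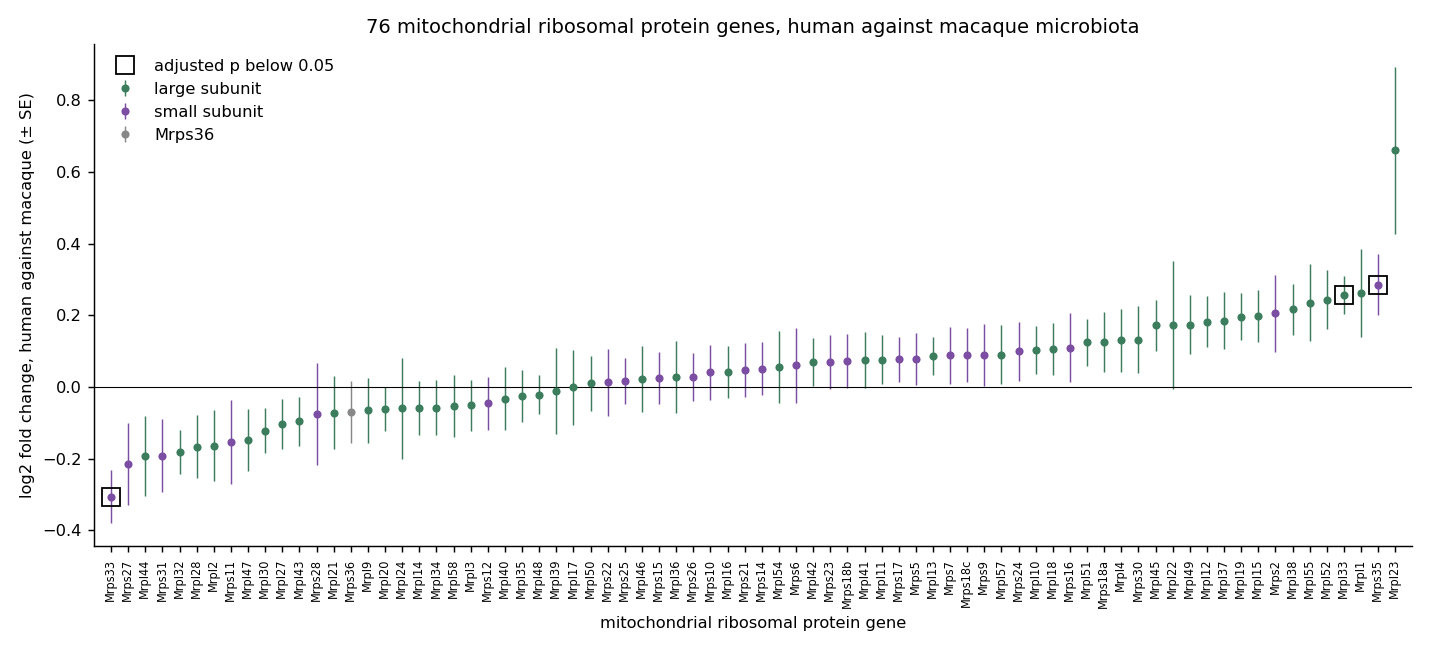
Log2 fold change of each of the 76 tested genes with human against macaque microbiota (points, with bars of 1 SE), in rising order and coloured by ribosomal subunit; squares mark an adjusted p below 0.05. Most genes lie within 0.2 of 0, Mrps33 stands at the low end, and Mrpl23 at the high end has the widest bar.

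Mrpl33 (ENSMUSG00000106918), a protein of the large subunit with a bacterial counterpart, had the smallest p-value. It ran from 69.5 over a median of 75.98 to 89.9 CPM in macaque recipients, from 74.5 over 89.5 to 101 CPM in squirrel monkey recipients and from 86.1 over 91.9 to 103 CPM in human recipients. All 12 human recipients were above the macaque median and 10 were above the highest macaque recipient, while 10 of 12 macaque recipients were below the lowest human recipient; the groups overlapped in the remaining mice. The means were 77.7 ± 6.45 CPM (SD, n = 12) with macaque, 90.4 ± 8.06 (n = 8) with squirrel monkey and 92.8 ± 4.66 (n = 12) with human microbiota. The log2 fold change of human against macaque was 0.26 ± 0.05 (SE), with an adjusted p of 0.00144 in edgeR's quasi-likelihood test.

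Squirrel monkey recipients stood near the human level of Mrpl33. Against macaque the log2 fold change was 0.22 ± 0.06 (SE), and edgeR's adjusted p of 0.0661 missed the threshold. Against squirrel monkey the human group differed by 0.04 ± 0.06 (adjusted p = 0.898, edgeR). Batch means were 93.5 CPM in A, 92.5 in B, 92.0 in C, 88.8 in D, 74.9 in E and 79.7 in F, so that both macaque batches were below the other 4. The human against macaque call was lost without batch E (0.22, adjusted p = 0.0589 in edgeR) and with counts summed per batch (0.27, adjusted p = 0.0753). The exons of Mrpl33 overlap the gene model Gm43809 on the same strand.

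Mrps35 (ENSMUSG00000040112) encodes a small subunit protein without a bacterial counterpart. It ran from 29.3 over 36.4 to 44.2 CPM with macaque, from 29.02 over 41.2 to 51.2 with squirrel monkey and from 38.1 over 42.1 to 57.5 with human microbiota. All 12 human recipients exceeded the macaque median, but only 4 exceeded the highest macaque recipient, and the squirrel monkey mice spread over both groups. The means were 36.2 ± 4.13 CPM (SD, n = 12), 39.8 ± 7.35 (n = 8) and 44.2 ± 5.76 (n = 12), in the same order. The log2 fold change of human against macaque was 0.29 ± 0.09 (SE), with an adjusted p of 0.0316 in edgeR. This call was lost in 7 of 17 alternatives, more than the other 2: it did not pass without batch A, B, E or F (adjusted p = 0.102, 0.131, 0.209 and 0.124, edgeR), with log2 changes from 0.25 to 0.33, and without any one of 5 mice (human 2 and 5, macaque 1, 4 and 11), with adjusted p up to 0.065.

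Mrps33 (ENSMUSG00000029918), also a small subunit protein without a bacterial counterpart, was the highest of the family in CPM and moved the other way. It ran from 169 over 204 to 246 CPM with macaque, from 145 over 195 to 218 with squirrel monkey and from 111 over 165 to 204 with human microbiota. Of the human recipients, 8 of 12 were below the lowest macaque recipient, and 6 macaque recipients were above the highest human recipient. The means were 205 ± 23.9 CPM (SD, n = 12), 188 ± 22.2 (n = 8) and 166 ± 23.2 (n = 12), and the log2 fold change of human against macaque was -0.31 ± 0.07 (SE; adjusted p = 0.00724, edgeR).

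The human batches themselves stood apart for Mrps33, at 149 CPM in A and 174 in B, below 190 in C, 185 in D, 198 in E and 210 in F. Without batch A the log2 fold change was -0.23 (adjusted p = 0.0731, edgeR), without batch F -0.26 (adjusted p = 0.147) and with library total as a covariate -0.24 (adjusted p = 0.0661). Library totals ran from 1204598 to 2089308 in human and from 1035036 to 1673882 in macaque recipients. The last bases of Mrps33 have near-identical copies in the gene models Gm12540 and Gm5776. Whether reads were split between them was not tested.

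**Figure D2:**
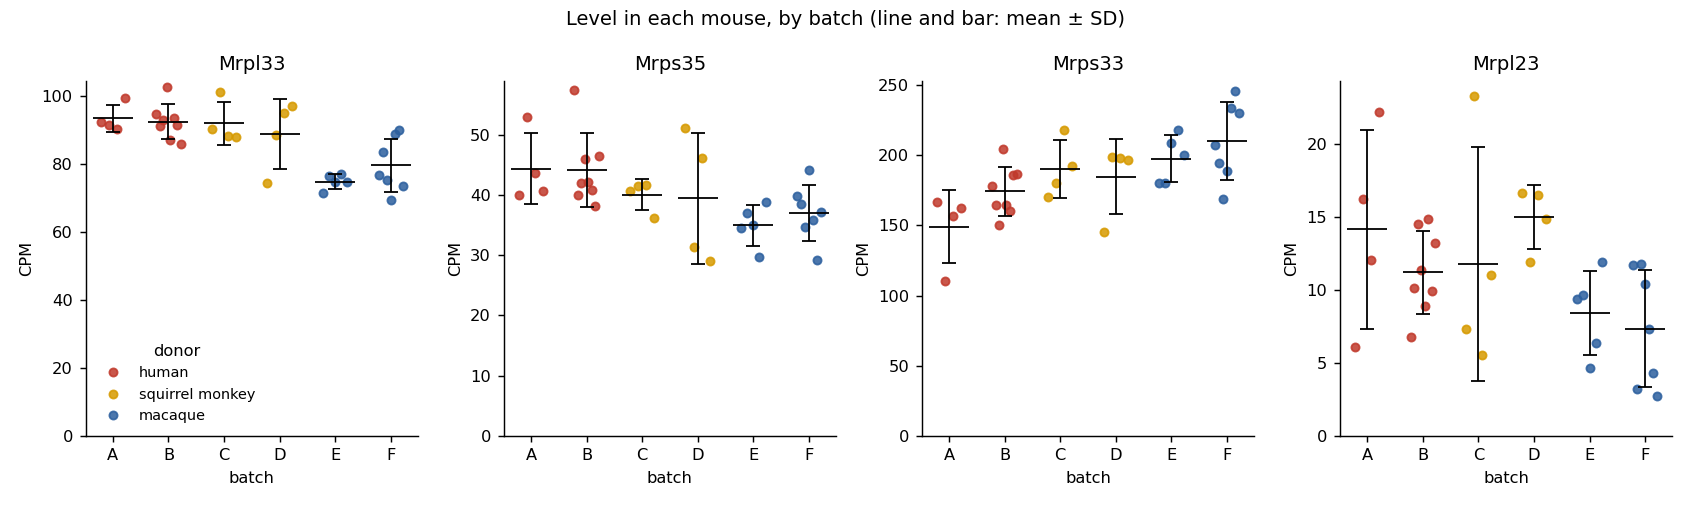
CPM of the 3 changed genes and of Mrpl23 in each mouse (points, coloured by donor species) by batch, with the batch mean and SD in black; each axis starts at 0. Both macaque batches (E, F) lie below the others for Mrpl33, both human batches (A, B) lie below the others for Mrps33, and Mrpl23 spreads widely within every batch.

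Mrpl38, Mrpl19 and Mrpl32 fell just outside the threshold. Mrpl38, a large subunit protein added in mitochondria, was higher by 0.22 ± 0.07 on the log2 scale (SE; adjusted p = 0.0522, edgeR) and passed in 7 of 17 alternative analyses. It averaged 51.0 ± 6.06 CPM with macaque and 59.1 ± 5.93 with human microbiota (SD, n = 12 each), and 11 of 12 human recipients were above the macaque median. Mrpl19 (0.20 ± 0.07, adjusted p = 0.0585) was above the macaque median in all 12 human recipients. Mrpl32, a large subunit protein whose trimming by a membrane protease is needed for ribosome assembly, was at 67.4 ± 7.43 CPM with macaque and 59.5 ± 4.83 with human microbiota (-0.18 ± 0.06, adjusted p = 0.0628). The next lower members lay farther from the threshold. They were Mrpl30 (-0.12 ± 0.06, adjusted p = 0.247, edgeR) and Mrps27, a pentatricopeptide repeat protein of the small subunit (-0.22 ± 0.11, adjusted p = 0.256, edgeR).

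The widest difference was that of Mrpl23, whose bacterial counterpart lies at the exit of the peptide tunnel, and it did not pass. Mrpl23 ran from 2.75 over 8.37 to 11.9 CPM with macaque, from 5.52 over 13.4 to 23.3 with squirrel monkey and from 6.07 over 11.7 to 22.2 with human microbiota, with 4 to 37 reads per mouse. The log2 fold change was 0.66 ± 0.23 (SE) for human against macaque (adjusted p = 0.0711, edgeR) and 0.80 ± 0.26 for squirrel monkey against macaque (adjusted p = 0.131). These 2 comparisons share the macaque mice. The end of the transcript has a near-identical copy in Mrpl23-ps1, a row of 52 reads in all that was left out.

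By subunit, the counts with human against macaque microbiota were read against the 8.01% of all tested genes that passed. Of 50 large subunit proteins, 1 rose and 0 fell (2%), with a median log2 fold change of 0.05 and 29 above 0. Of 25 small subunit proteins, 1 rose and 1 fell (8%), with a median of 0.05 and 19 above 0. The remaining gene, Mrps36, is now assigned to the 2-oxoglutarate dehydrogenase complex. Proteins with a bacterial counterpart (45) and those added in mitochondria (30) had medians of 0.05 and 0.04. Of 12 tested members known from human combined respiratory chain deficiency, 0 passed, with a median of 0.01 and 1 unadjusted p below 0.05.

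With squirrel monkey against macaque microbiota 0 of 76 members passed in edgeR and in DESeq2, while in edgeR 0.64% of all tested genes did. At an unadjusted p below 0.05, 5 members were higher and 2 lower, which is 9.21% of them, against 13.2% of all tested genes. Of the 76, 47 lay above 0, and the median log2 fold change was 0.02; it was 0.01 without batch C and 0.08 without batch D. After Mrpl33 and Mrpl23 the smallest p-values belonged to Mrpl43 (-0.21 ± 0.08), Mrpl40 (0.23 ± 0.10) and Mrpl45 (0.19 ± 0.08), the last a large subunit protein that anchors the ribosome to the inner membrane. Their adjusted p ran from 0.226 to 0.284 in edgeR. Mrpl40, encoded in the region deleted in the human 22q11 syndrome, was above the macaque median in 8 of 8 squirrel monkey recipients. Mrpl30 (-0.16 ± 0.07), Mrpl2 (-0.22 ± 0.11) and Mrpl28 (-0.19 ± 0.10) followed on the lower side. Mrpl33 passed with library totals in place of scaling factors (0.24, adjusted p = 0.039) and with limma voom (0.24, adjusted p = 0.0231).

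With human against squirrel monkey microbiota 0 of 76 members passed in edgeR, against 0.134% of all tested genes. None passed in 17 alternatives either, but DESeq2 gave an adjusted p for only 34 of the members here. The unadjusted p was below 0.05 for 2 higher and 3 lower members, 6.58% of them, against 10% of all tested genes. The median was 0.02 with 42 above 0, and its sign turned without batch B (-0.07), without batch D (-0.0003), with counts summed per batch (-0.0067) and with 6 batch levels (-0.0055). The higher members of smallest p were Mrpl49 (0.23 ± 0.09), Mrpl12 (0.17 ± 0.08), Mrpl37 (0.18 ± 0.09) and Mrpl38 (0.15 ± 0.08), and the lower ones Mrpl40 (-0.26 ± 0.10), Mrpl27 (-0.19 ± 0.08), Mrps33 (-0.18 ± 0.08) and Mrps31 (-0.18 ± 0.11). Mrpl12, a protein of the flexible stalk that recruits translation factors, changed sign without batch B, to -0.02.

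An F-test over the 3 donor groups called Mrpl33 (adjusted p = 0.00339, edgeR) and Mrps33 (adjusted p = 0.0239), 2 of 76 members, while 6.15% of all tested genes passed. By batch means, 18 of 76 members had both human batches above both macaque batches, against 23.9% of all tested genes. Both human batches were below in 11 of 76 members, against 25.1% of all tested genes.

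**Figure D3:**
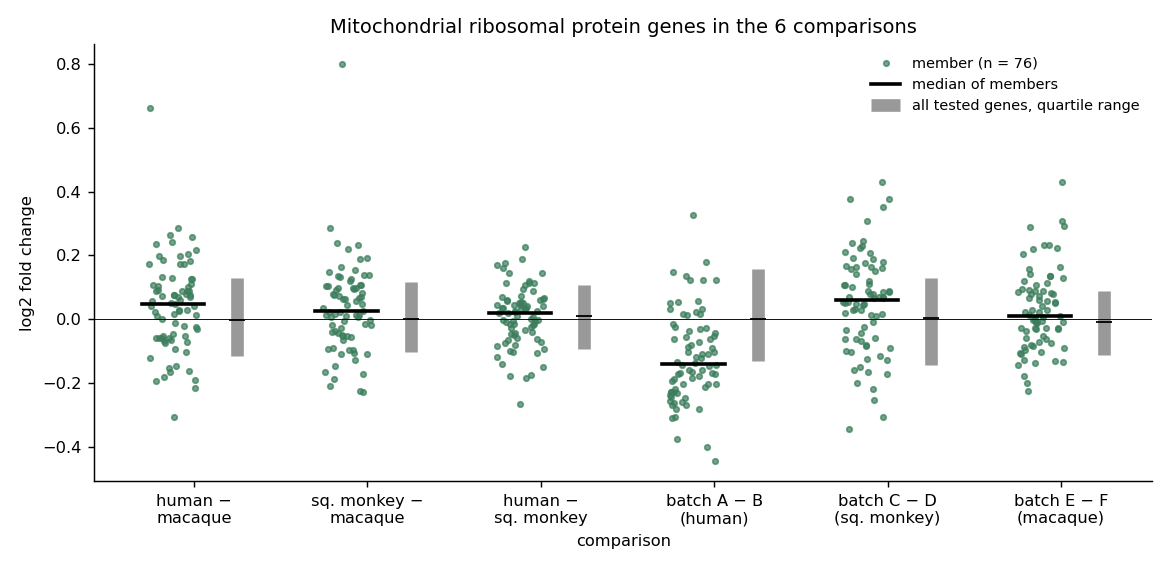
Log2 fold changes of the 76 tested genes (green points, black line at their median) in the 3 donor comparisons and the 3 comparisons of batches with the same donor species; grey bars span the quartiles of all 12651 tested genes. The family's median lies near 0 in the donor comparisons and at -0.14 between batches A and B.

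Among the 6 comparisons, the family's median was farthest from 0 between the 2 human batches. In batch A, 60 of 76 members were lower than in batch B, and the median log2 difference was -0.14, against -0.0009 for all tested genes, of which 49.9% were above 0. The summed level was 4538, 4426, 4115 and 4310 CPM in the 4 mice of batch A and ran from 4401 over 4806 to 5034 CPM in the 8 mice of batch B. Of these 8 mice, 7 were above the highest mouse of batch A. The other batch means, from 4523 CPM in D to 4678 in C, lay between A (4347 ± 181, SD) and B (4782 ± 224).

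No single member passed the threshold between A and B. At an unadjusted p below 0.05, 14 members were lower and 0 higher, which is 18.4% of them, against 11.6% of all tested genes (753 higher and 720 lower). After adjustment 0 members passed in edgeR, while 0.0237% of all tested genes did, and 0 passed in 9 alternatives, of which DESeq2 gave an adjusted p for 34 members and none for the other 42. Mrps18a, a large subunit protein despite its name, was at 50.4, 64.6, 46.0 and 64.1 CPM in batch A and from 63.5 to 89.99 CPM in batch B (log2 difference -0.40 ± 0.11, adjusted p = 0.219, edgeR). Mrpl2, whose bacterial counterpart supports the peptidyl transferase centre, was at 29.2, 33.4, 32.4 and 31.2 CPM in A and from 26.2 to 50.3 CPM in B (-0.45 ± 0.14, adjusted p = 0.247). On the higher side Mrps6 (0.18 ± 0.14) and Mrpl45 (0.12 ± 0.10) led by p-value.

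Most lists of the organelle were also lower in A by their median. Of 37 nuclear genes for respiratory complex I, 35 were lower in batch A, with a median log2 difference of -0.15. The 5 ribosomal proteins with other names had a median of -0.12, 26 assembly factors one of -0.08 with 15 lower, 13 translation factors -0.09 with 8 lower, and 19 genes of mitochondrial DNA and RNA synthesis -0.09 with 13 lower. The tRNA synthetases (0.07, 9 of 20 lower) and the biogenesis regulators (0.06, 4 of 9 lower) lay above 0. Outside the organelle, the cytosolic ribosomal protein genes had a median of -0.04 with 47 of 81 lower.

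Cell type markers of the other cells in the tissue were compared between A and B, and 0 passed in edgeR. All 12 myelin markers were detected and all 12 were higher in A by fitted difference; their summed level ran from 1450 to 6570 CPM in A and from 779 to 10670 CPM in B. Without the 5 mice of highest myelin marker level (human 1, 4 and 12, squirrel monkey 1 and 8), 58 of 76 members were lower in A with a median of -0.14. Of these mice, human 1 and 4 belong to batch A, which holds only 4 mice, and human 12 to batch B. With the myelin marker score as a covariate 59 members were lower in A, with a median of -0.13. All 8 endothelial markers were higher in A, with sums of 270 to 323 CPM against 190 to 292 CPM in B, and so were the 4 tested blood markers, with sums of 111 to 301 CPM against 84.6 to 128 CPM. All 9 astrocyte markers (median log2 difference 0.11) and the 4 tested meningeal markers (0.51) were higher in A, with sums of 2968 to 4371 against 3128 to 4002 CPM and of 79.4 to 199 against 39.0 to 154 CPM. Lower in A were 5 of 6 inhibitory neuron markers (median -0.17, sums of 890 to 1255 against 960 to 1547 CPM) and 7 of 9 microglia markers (-0.12, sums of 395 to 518 against 410 to 597 CPM). The 6 excitatory neuron markers summed to between 2983 and 4053 CPM in A and between 2797 and 4773 in B. No list had a marker at 0 in every mouse, and the part of cell types in the difference, myelin cells among them, was not tested.

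The family's median in the donor comparison moved with the human batch. Without batch A the members' median log2 fold change of human against macaque was 0.10, and without batch B it was -0.06, so the sign of the family's median depended on which human batch was kept.

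**Figure D4:**
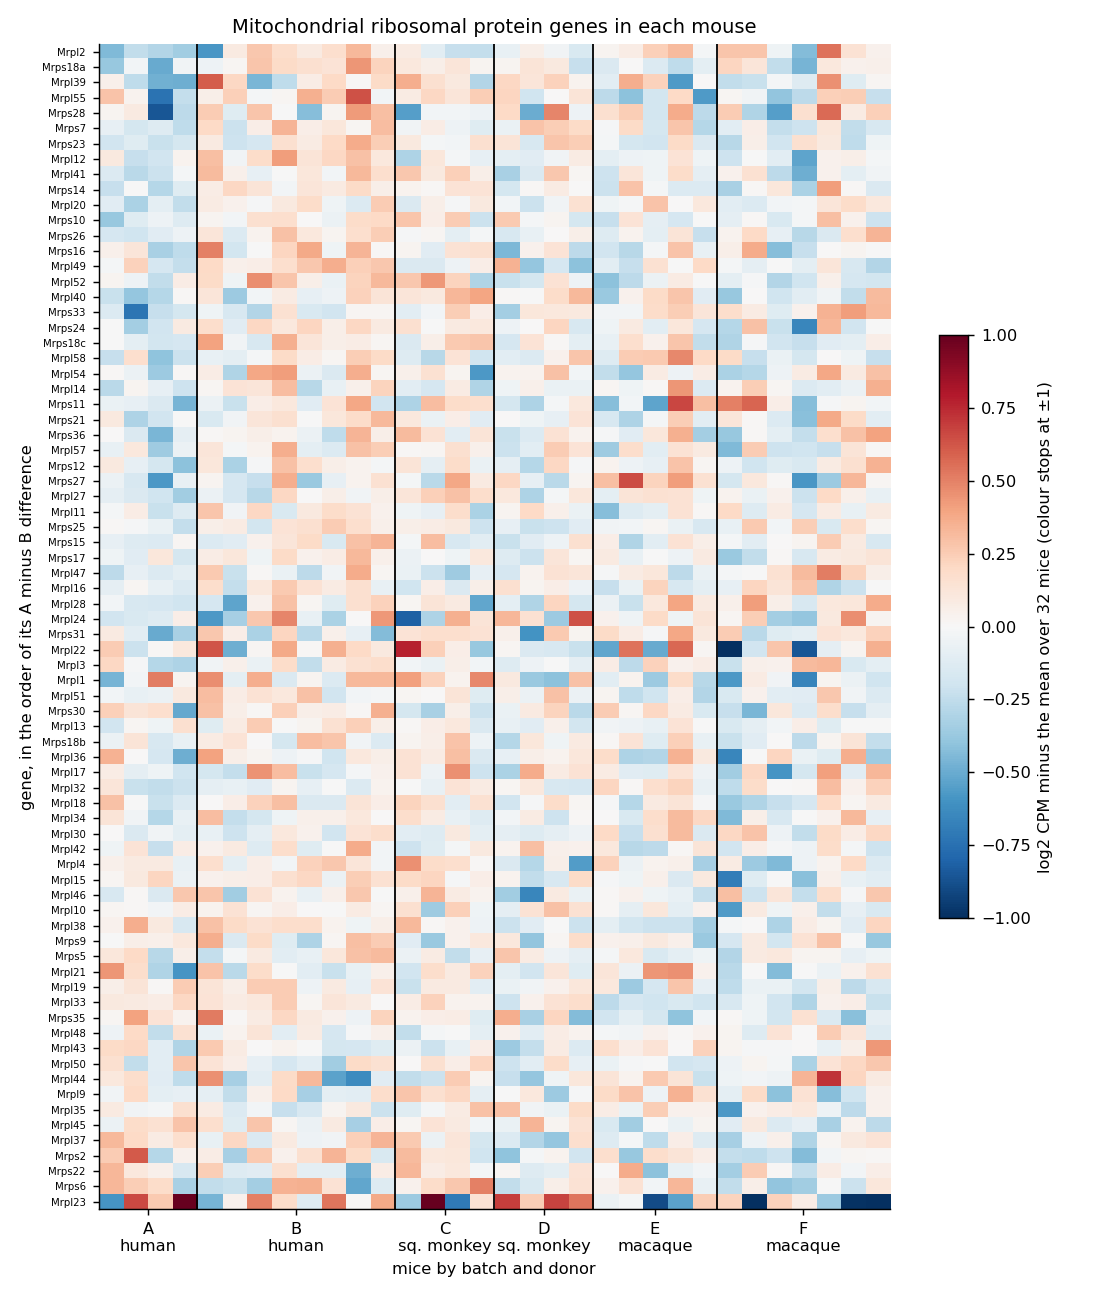
Log2 CPM of the 76 tested genes (rows, in the order of their A minus B difference) in the 32 mice (columns, by batch), each minus the gene's mean over all mice; red is higher, blue lower, and the colour stops at 1. The upper rows are blue in the 4 mice of batch A and mostly red in batch B, and no donor group forms a block over all rows.

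In the other batch pairs the family's median lay nearer to 0. C and D shared a plate column, E and F did so in part, and A and B did not. The pairs also differ in donor species, so the 2 cannot be told apart, and the part of the plate column was not tested. Between the squirrel monkey batches C and D, 51 of 76 members were higher in C with a median of 0.06 (0.03 without squirrel monkey 3, with 42 higher), and 0 passed in edgeR (0% of all tested genes); 2 had an unadjusted p below 0.05, 2.63% of them, against 6.98% of all tested genes. Mrpl4 (0.43 ± 0.14, adjusted p = 0.401, edgeR) and Mrpl46 (0.35 ± 0.16) led the higher members, and Mrps7 (-0.20 ± 0.12) and Mrpl47 (-0.22 ± 0.15) the lower ones. Between the macaque batches E and F, 41 were higher in E with a median of 0.01, and 0 passed in edgeR (0% of all tested genes); 4 had an unadjusted p below 0.05, 5.26% of them, against 3.15% of all tested genes. Without macaque 4 the median was -0.0079, with 34 higher. Mrps27 (0.43 ± 0.15) and Mrpl58 (0.31 ± 0.11), a peptidyl-tRNA hydrolase built into the large subunit, were higher in E, and Mrpl38 (-0.20 ± 0.10) and Mrpl47 (-0.22 ± 0.12) lower.

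Genes that serve the mitochondrial ribosome were described with human against macaque microbiota. Of 5 ribosomal proteins with other names, Gadd45gip1, part of the large subunit, rose from 19.9 ± 5.78 CPM with macaque to 28.2 ± 8.24 with human microbiota (0.50 ± 0.15 on the log2 scale, adjusted p = 0.0345, edgeR); Aurkaip1, Chchd1, Dap3 and Ptcd3 had values from -0.02 to 0.08. Of 26 assembly factors, the GTPase gene Mtg2 rose (0.41 ± 0.13, adjusted p = 0.0451, edgeR). Rbfa, which binds the small subunit RNA during maturation, fell from 35.9 ± 6.69 to 24.8 ± 6.18 CPM (-0.51 ± 0.11, adjusted p = 0.0034, edgeR). That is 7.69% of the assembly factors, against 8.01% of all tested genes. Of 13 translation factors, the release factor gene Mtrf1l fell (-0.54 ± 0.17, adjusted p = 0.041, edgeR), which is 7.69% of that list.

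Further from the ribosome, 0 of 20 tRNA synthetase genes passed in edgeR, with 1 higher and 1 lower at an unadjusted p below 0.05. Of 19 genes for synthesis of mitochondrial DNA and RNA, Polg2, the accessory subunit of the DNA polymerase, rose (0.54 ± 0.14, adjusted p = 0.013, edgeR). So did Lonp1, a matrix protease (0.23 ± 0.07, adjusted p = 0.0243, edgeR). That is 10.5% of the 19, against 8.01% of all tested genes. Of 9 tested regulators of mitochondrial biogenesis 0 passed in edgeR, with 2 higher and 0 lower at an unadjusted p below 0.05. Nrf1 had a log2 fold change of 0.29 ± 0.10 (adjusted p = 0.0692), Yy1 of -0.01 ± 0.07 and Gabpa of -0.05 ± 0.19. Of 13 listed genes encoded by mitochondrial DNA, 0 had a row in the count table by symbol, so they were not analysed here.

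The cytosolic ribosome gave other counts in the same comparison. Of 81 tested cytosolic ribosomal protein genes 43 rose and 0 fell, with a median log2 fold change of 0.24. That is 53.1%, against 8.01% of all tested genes. For the mitochondrial ribosome 2 of 76 rose and 1 fell (3.95%), with a median of 0.05. With squirrel monkey against macaque microbiota 22 cytosolic genes rose and 0 fell (27.2%, against 0.64% of all tested genes), with a median of 0.17. Between the squirrel monkey batches C and D the cytosolic median was also 0.17, and 0 genes passed in edgeR. At an unadjusted p below 0.05, 34 of the 81 were higher in C and 0 lower (42%, against 6.98% of all tested genes). Of 37 complex I genes 5 rose with human microbiota and 0 fell (13.5%, against 8.01% of all tested genes). Among the 5 were Ndufb4 (1.16 ± 0.16), Ndufs5 (0.58 ± 0.10), Ndufa7 (0.34 ± 0.06) and Ndufa12 (0.50 ± 0.09), with adjusted p at or below 0.000195 in edgeR. With squirrel monkey against macaque microbiota Ndufb4 alone of the complex I genes passed (0.84 ± 0.18, adjusted p = 0.018, edgeR), which is 2.7% of them. Between batches C and D 0 complex I genes passed in edgeR, and 29 were higher in C and 8 lower, by up to 0.70 on the log2 scale. At an unadjusted p below 0.05, 5 were higher and 0 lower (13.5%, against 6.98% of all tested genes). The difference between these lists and the family was not tested.

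**Figure D5:**
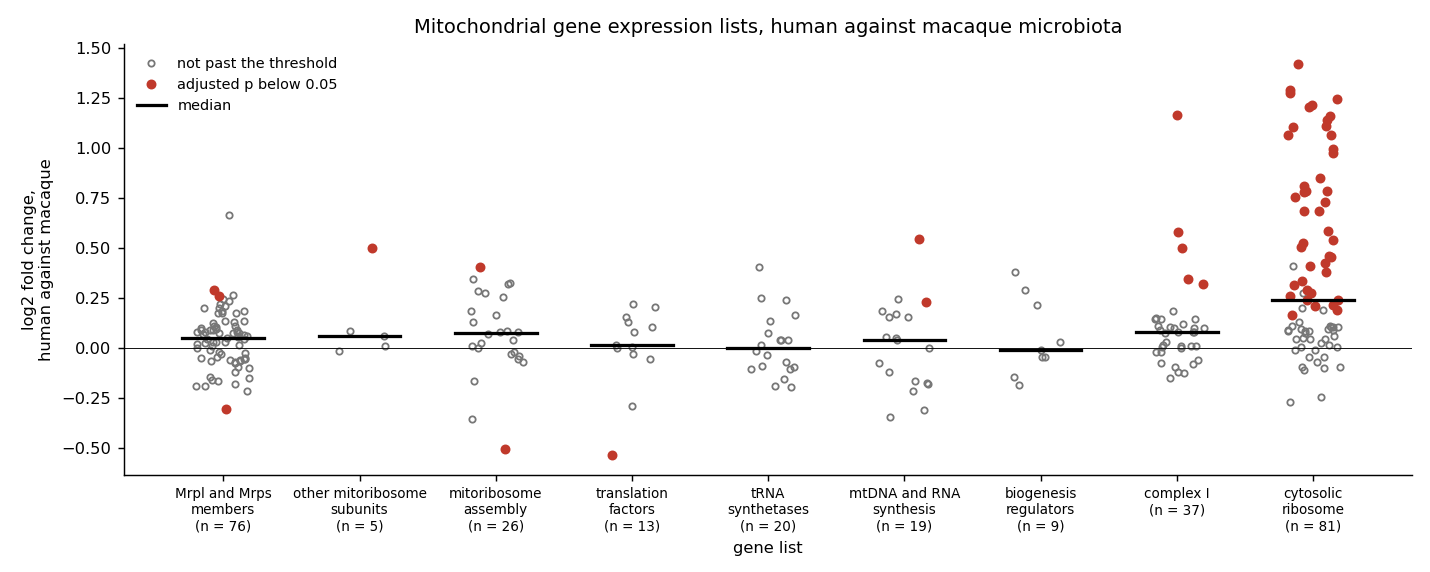
Log2 fold change of human against macaque microbiota for the mitochondrial ribosomal protein genes and 8 related gene lists (points, red where the adjusted p is below 0.05; line at the median). The family's median is 0.05 with 3 red points, and the cytosolic ribosome list has 43 red points and a median of 0.24.

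Of the 12 myelin markers, 3 rose with human against macaque microbiota (25%, against 8.01% of all tested genes), and the median log2 fold change was 1.22. Their summed level ran from 679 over 1031 to 3743 CPM with macaque, from 904 over 2025 to 5508 with squirrel monkey and from 779 over 1366 to 10670 with human microbiota. Of 6 excitatory neuron markers 1 rose and 1 fell with human against macaque microbiota (33.3%). In that comparison 1 of 4 meningeal (25%), 1 of 6 inhibitory neuron (16.7%) and 1 of 8 endothelial markers (12.5%) rose. Of the astrocyte, microglia and blood markers 0 passed in edgeR. Without the 5 mice of highest myelin level, chosen after seeing the data, 4 members passed with human against macaque microbiota, the 3 named above and Mrpl38 (0.26, adjusted p = 0.023, edgeR), while 6.15% of all tested genes did.

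Over the 32 mice, the genes of the whole table whose log2 CPM was most like that of Mrpl33 were Rpl37 (Pearson r = 0.801), Cox6c (0.791) and Rpl34 (0.783). For Mrps33 they were Gm11407 (0.834), Hsp90aa1 (0.828) and Psma4 (0.791), and for Mrps35 Pbld1 (0.703), Trpm2 (0.674) and Tulp3 (0.649). The points share libraries, donor groups and batches, and the values are a description.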

How the data were processed

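Frontal cortex RNA of 32 mice was sequenced, per the labels' protocols, in single reads from 3′ tag libraries. What the authors deposited is 1 table of raw counts per Ensembl gene; the submitters' processing notes name the build GRCm39. Not given in the sources used here are the aligner, the annotation and the use of strand. The table held 3 further columns of counts that match no sample, and they entered no step; 76 rows without a symbol held 0.031% of counts. Totals were 1035036 to 2089308 counts per mouse (median 1534710.5), and the members' median counts per mouse ran from 16 to 287.5. The median SE of a member's log2 fold change of human against macaque was 0.0784. No 2 mice held identical counts; over 160 pairs of mice within donor groups, chi-square per degree of freedom was 1.46 to 7.93.

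Counts were filtered with filterByExpr (minimum count 10, minimum total 15), scaled by TMM factors (0.955 to 1.04) and tested with edgeR 4.0.16 in R 4.3.3 by the quasi-likelihood test over all 32 mice with donor group as the only term. Batches were compared in a fit with 6 batch levels. Benjamini-Hochberg adjustment took in the 12651 genes tested, and an adjusted p below 0.05 counted as passing. CPM are linear, and log2 CPM used a prior count of 2.

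Members and lists were chosen with earlier results of these data known. The text names members that passed, in each donor comparison the 4 of smallest p in each direction, in each batch comparison 2, and at most 4 genes that passed from each list; Mrpl52, Mrpl15 and others appear only where an alternative is described. Overlaps and copies of the last 300 bases of transcripts (at least 100 bases at 95% identity) came from the GENCODE M21 annotation. It was made on a different build, so no coordinates were taken from it. Exons of 28 members overlapped a gene on the opposite strand, and those of 8 members a gene on the same strand. Such a copy was found for 26 members, with overlapping neighbours and stretches shared by many genes counted in. Alternatives were other scaling, filters, DESeq2 1.42.0, limma 3.58.1 voom, batch sums, batch levels, 2 covariates and leaving out batches or mice.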

Additional observations from a re-analysis of the deposited data

Results flagged for a closer look

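In the squirrel monkey group, the only donor group of a size that Dixon's ratio was applied to (8 mice), 27 sets of values were examined: the named members and the summed level. In 4 of them 1 mouse stood apart, by a gap to its nearest neighbour above 0.526 of the group's range. Chance alone gives about 1 in 20 for unselected, independent sets. These sets share the same 8 mice, and many members were named by p-values from fits that include them. The 4 of 27 can therefore not be weighed against that rate.

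Mrpl30 was at 133 CPM in squirrel monkey recipient 3, above the next mouse at 120 CPM. Mrpl38 was at 68.5 CPM in recipient 1, above the next at 55.9 CPM. Mrps18a was at 56.0 CPM in recipient 8, below the next at 67.2 CPM, and Mrps31 at 16.2 CPM in recipient 6, below the next at 25.6 CPM. A different mouse stood apart in each gene.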

How the results depend on the processing

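With human against macaque microbiota 3 members passed. The count was 8 with library totals only, which moved the median of all tested genes to 0.02 and their split to 673 higher and 321 lower from 565 and 448; the added members were Mrpl12, Mrpl15, Mrpl19, Mrpl38 and Mrpl52, all higher. It was 5 with 6 batch levels and without batch C, and 1 with counts summed per batch, with library total as a covariate and without batch E. Leaving out 1 mouse in turn gave 2 to 6; it was 5 without human 1, human 11 or macaque 6 and 6 without macaque 10. With squirrel monkey against macaque microbiota the count of 0 became 1 with library totals only and with limma voom, and ranged from 0 to 1 without 1 mouse (1 without squirrel monkey 5, macaque 10 or macaque 11, each time Mrpl33). The F-test count of 2 became 0 with counts summed per batch and without batch E, 1 with library total as a covariate and without batch F, and 2 to 3 without 1 mouse. Counts for human against squirrel monkey and for the batch pairs were 0 in every analysis run, removals of single mice included, but for human against squirrel monkey and for batch A against B DESeq2 left 8339 genes, 42 members among them, without an adjusted p, so these could not pass there. Without batch B the members' median became -0.0633 for human against macaque and -0.0681 for human against squirrel monkey, and Mrpl12 in the latter became -0.0233; the cause was not tested. Without 1 mouse the members' median ran from 0.0322 to 0.075 for human against macaque, from 0.0179 to 0.0451 for squirrel monkey against macaque, from 0.0009 to 0.0311 for human against squirrel monkey, from 0.0289 to 0.0763 between batches C and D and from -0.0079 to 0.0426 between E and F. Between batches A and B the median ran from -0.1423 to -0.1009 over 9 alternatives and from -0.1806 to -0.1127 without 1 mouse; these batch medians, and the removal of the 5 mice of highest myelin level, were added after seeing the data. Mrps35 lost its call without a filter on low counts (adjusted p = 0.0539, edgeR), with counts summed per batch (0.117) and with library total as a covariate (0.0595), where Mrps33 also lost it.

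No paired analysis was possible because replicate numbers follow accession order and pair no mice. Depth limits the genes with few reads, such as Mrpl23, and Mrpl53 and Mrps34 could not be tested.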
